A study of Rattus norvegicus with 20 samples.

Results

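Gene expression was compared between rats with infantile spasms that received ACTH (BYA) and rats with spasms that received saline (BYS), 8 of the 20 samples of the series, chosen by their group labels. Each group held 4 samples of the hypothalamic arcuate nucleus, which the labels call biological replicates, from male Sprague-Dawley rats at postnatal day 15. The mothers of the BYA, BYS, BYP and BNS pups received 2 injections of betamethasone, a synthetic glucocorticoid, at 0.4 mg/kg on gestational day 15, and the mothers of SNS pups received saline. Spasms were triggered with NMDA, an agonist of glutamate receptors, on postnatal days 12, 13 and 15 in BYA, BYS and BYP rats. Per the labels, ACTH (BYA), saline (BYS) or the C5ar1 antagonist PMX53 (BYP) was given on days 13, 14 and 15. The paper instead starts treatment on day 12, with ACTH on days 12, 13 and 14. BNS and SNS rats had no spasms and received saline, and every group other than SNS therefore carried the prenatal steroid. The labels give neither the litters nor whether any rats shared one.

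ACTH is the pituitary peptide that drives the adrenal cortex to release glucocorticoids. It is cut from the precursor proopiomelanocortin, which arcuate neurons also make, and it can bind melanocortin receptors in the brain as well as in the adrenal gland. ACTH is an established treatment for infantile spasms. The arcuate nucleus contains the Pomc and Agrp neurons of feeding and energy balance, along with neurons that control pituitary hormone release.

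Both samples of an array were labelled with different dyes and hybridised together. Replicates 1 and 3 were labelled with Cy3 and replicates 2 and 4 with Cy5. The 4 BYA samples lay on 1 slide and the 4 BYS samples on another, so slide and group cannot be told apart. A gene's level is given here as log2 intensity relative to the median gene of its sample, and a difference is BYA minus BYS on that log2 scale, in which 1 is a doubling. Expression was measured for 13292 genes. A gene was called changed where limma's adjusted p (Benjamini-Hochberg) was below 0.05. Pomc and Agrp, which mark neurons of the labelled tissue, were well above the median of their samples. The 38 arcuate neuropeptides and receptors measured had a median level at percentile 52.7 of all genes, near the median gene. Pomc stood at 4.72, 5.66, 5.2 and 5.34 in BYA replicates 1 to 4 and at 4.43, 4.76, 4.89 and 5.11 in BYS. Agrp stood at 5.16, 5.82, 5.88 and 5.78 in BYA and at 5.19, 4.86, 5.33 and 4.76 in BYS.

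The arrays of BYS, and 1 of the 2 arrays of BYA, stood apart from the rest of the series by the position of their spots. Spots of one accession are spread over each array, and 1120 accessions had 10 or more spots, 8 or more of them with values in all samples. These spots were taken as copies of one probe, though probe sequences were not at hand. Each spot's value was taken relative to its median over all samples. The median SD of these deviations among copies within a sample was 0.112, 0.133, 0.295 and 0.41 in BYA replicates 1 to 4, and 0.38, 0.511, 0.333 and 0.494 in BYS. It was between 0.095 and 0.195 in the other 12 samples. Copies of one probe measure the same RNA, and on these 3 arrays they therefore differed more than on the others. When the array was divided into 237 blocks of 38 rows by 5 columns, the lowest block deviated from the median over all samples by -0.66, -0.61, -0.88 and -0.93 in BYA replicates 1 to 4 and by -1.14, -1.17, -1.02 and -0.97 in BYS. Blocks below -0.3 numbered 3, 3, 52 and 33 in BYA and 79, 52, 75 and 46 in BYS, against 0 to 12 in each of the other 12 samples.

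The difference between BYA and BYS varied with where a spot was printed, and the block medians of BYA minus BYS ran between -0.65 and 0.9, along a diagonal band of higher values. To describe each result with and without this pattern, the values were corrected by subtracting from each spot the median deviation of its 60 nearest neighbours in row, column and brightness. This correction was chosen after the pattern was seen. It left block medians between -0.19 and 0.3, and reduced the SD among copies to 0.068, 0.084, 0.146 and 0.187 in BYA and to 0.182, 0.227, 0.146 and 0.184 in BYS.

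**Figure D1:**
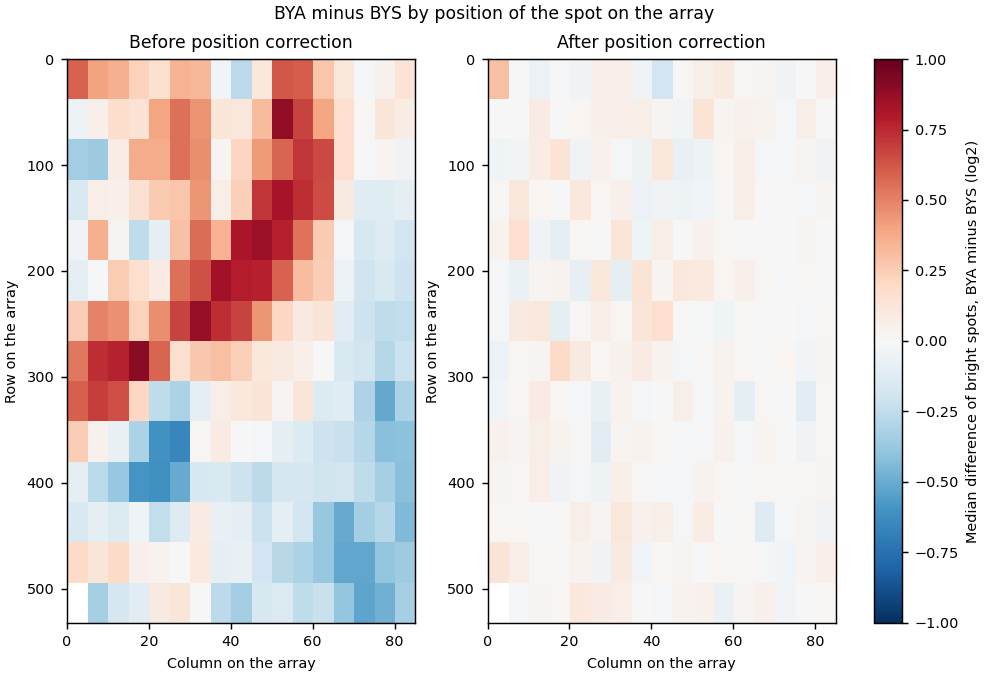
Median difference of bright spots, BYA minus BYS (log2, colour), by row and column of the spot on the array, before and after position correction. Before correction a diagonal band reached 0.9 and the lower blocks reached -0.65, and after correction blocks lay between -0.19 and 0.3.

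**Figure D2:**
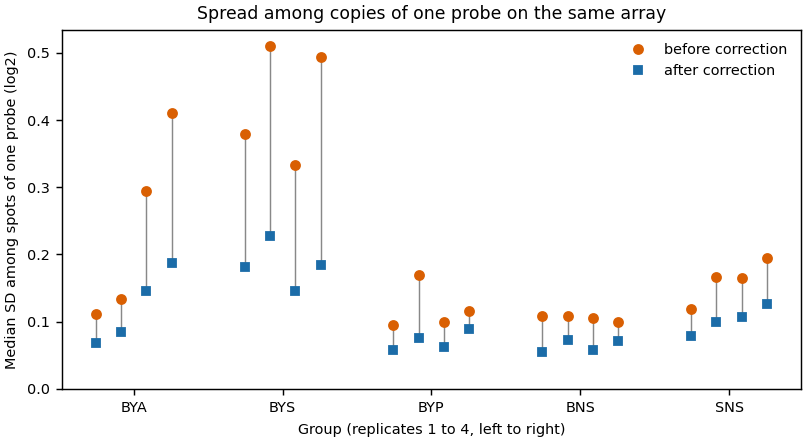
Median SD (log2) among spots of one accession, taken as copies of one probe, within each sample, for replicates 1 to 4 of each group. Values are relative to each spot's median over all samples, before (circles) and after (squares) position correction. The 4 BYS samples and BYA replicates 3 and 4 lay highest, between 0.295 and 0.511 before correction.

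Before correction, 1152 genes (8.67% of those tested) were called between BYA and BYS, 663 higher (4.99%) and 489 lower (3.68%) in BYA. After correction 284 genes (2.14%) were called, 168 higher and 116 lower. Of these 284, 150 genes (1.13%) were called in the same direction both before and after, 128 higher and 22 lower, and 134 were called only after. Among the 1152 genes the median size of the difference was 0.8 before correction and 0.24 after it. The corrected fit takes its spread from all 20 samples, and with the BYA and BYS samples alone it called 8 genes, 6 higher and 2 lower. The split by direction followed the scale: centred on the 75th percentile of each sample in place of the median, 475 genes were higher and 784 lower before correction.

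The calls followed the local deviation, which is the part of BYA minus BYS that the neighbours of a gene's spots shared. Where the local deviation was above 0.5, 469 of 900 genes were called higher and 0 lower before correction. Where it was below -0.5, 0 of 1226 genes were called higher and 286 lower. After correction 66 genes were higher and 46 lower among those 900 genes, against 4 and 4 among those 1226, so corrected calls were still more frequent inside the band. At positions where the local deviation was 0.25 or less in size, 65 of 6951 genes (0.935%) were called before correction and 91 (1.31%) after it. Direction followed its sign there too. Before correction 33 genes were higher and 3 lower between 0 and 0.25, and 0 and 29 between -0.25 and 0. After correction these counts were 32 and 27, and 19 and 13. Calls were also fewer for genes on many spots. Of 9580 genes on 1 spot 9.86% were called before correction and 2.52% after it, whereas of 1189 genes on 10 or more spots, 2.44% and 0.673% were called.

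Tubb2b and Dhrs7 were the 2 genes called in BYA against each of BYS, BYP and BNS, before and after correction in the fit of all 20 samples. The 3 comparisons share the 4 BYA samples and their slide, so they are not independent of each other. Tubb2b encodes a beta-tubulin of migrating and growing neurons, and Dhrs7 a short-chain dehydrogenase that can act on steroids and retinoids. Both were lower in BYA, both before and after correction, and the local deviation at their spots was 0.19 and -0.06. Tubb2b stood at 5.40, 6.02, 5.31 and 5.55 in BYA and at 5.98, 6.64, 5.96 and 6.12 in BYS. Before correction 1 of the 4 BYA values, the Cy5-labelled replicate 2, lay within the BYS range, while within each dye every BYA value was below every BYS value. The difference was -0.61 ± 0.16 (SE, limma adjusted p = 0.0282) and, after correction, -0.80 ± 0.12 (limma adjusted p = 0.00152).

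Dhrs7 stood at 0.57, 1.02, 0.50 and 1.04 in BYA and at 1.47, 1.79, 1.3 and 1.61 in BYS. All 4 BYA values were below all 4 BYS values. The difference was -0.76 ± 0.13 (limma adjusted p = 0.000995) and, after correction, -0.70 ± 0.11 (limma adjusted p = 0.00197). Neither gene was called between BYS and BNS, the rats without spasms, before correction. BYS minus BNS was then -0.34 for Tubb2b and -0.17 for Dhrs7 (limma adjusted p = 0.153 and 0.351), of the same sign as BYA minus BYS. Against BYP, Tubb2b differed by -1.02 (limma adjusted p = 0.0208; after correction -0.81, limma adjusted p = 0.0291) and Dhrs7 by -0.99 (limma adjusted p = 0.00422; after correction -0.67, limma adjusted p = 0.0425). Before correction Tubb2b lost its call in BYA minus BYS with slide as the random block (limma adjusted p = 0.188), with the compared groups alone (0.112), in Cy5 samples alone (0.247) and by the methods' t-test after adjustment (0.357). It also lost it without BYS replicate 2 or 3 (limma adjusted p = 0.057 and 0.0569), without the array of BYA replicates 3 and 4 (0.127) and without that of BYS replicates 1 and 2 (0.162). Dhrs7 lost its call in Cy5 samples alone (limma adjusted p = 0.131) and by the adjusted t-test (0.19). After correction both lost it with the compared groups alone (limma adjusted p = 0.139 for Tubb2b and 0.0942 for Dhrs7). Against BYP, 0 genes and so neither of these were called with slide as the random block, with 1 dye alone, with Cy3 background matched or by the adjusted t-test before correction, with the compared groups alone before or after correction, or after correction without BYA replicate 1, BYP replicate 2 or BYP replicate 3. Against BNS, from which 0.241% of genes differed before correction and 3.73% after it, Tubb2b differed before correction by -0.95 (limma adjusted p = 0.0201) and Dhrs7 by -0.93 (limma adjusted p = 0.00318). Tubulin genes are close in sequence, so signal at the Tubb2b spot could include other tubulins.

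Promoter windows of these 2 genes are shown because the ACTH receptor signals through cAMP, and a promoter can carry the cAMP response element TGACGTCA or its core TGACG. They span 300 bases around the RefSeq start in GRCr8, are written 5′ to 3′ on the strand of the gene, and have the core on either strand in capitals (CGTCA where it lies on the minus strand of the gene). Tubb2b lies at chr17:30952836-30953135 on the plus strand and Dhrs7 at chr6:97083695-97083994 on the minus strand.
Tubb2b: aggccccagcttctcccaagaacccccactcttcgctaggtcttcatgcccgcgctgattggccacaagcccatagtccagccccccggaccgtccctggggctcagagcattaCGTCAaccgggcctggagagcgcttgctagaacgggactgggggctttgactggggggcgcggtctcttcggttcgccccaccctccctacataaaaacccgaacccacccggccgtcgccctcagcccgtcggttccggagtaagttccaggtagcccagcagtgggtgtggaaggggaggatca
Dhrs7: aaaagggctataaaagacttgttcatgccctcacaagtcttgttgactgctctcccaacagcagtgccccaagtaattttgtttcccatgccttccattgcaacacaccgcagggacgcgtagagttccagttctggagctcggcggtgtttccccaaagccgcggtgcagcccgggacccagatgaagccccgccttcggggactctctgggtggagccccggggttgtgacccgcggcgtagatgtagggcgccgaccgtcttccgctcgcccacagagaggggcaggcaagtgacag
The Tubb2b window held 1 such core, on the minus strand, and the Dhrs7 window held 0. Of all 27457 RefSeq promoter windows of this length 22% held the core, and of the 10984 that matched a tested gene 29.8% did. Of the 131 windows matched to the 150 genes called both before and after correction, 58 (44.3%) held the core and 7 (5.34%) the full element, against 2.88% of tested genes for the full element. The CCAAT box, searched on both strands in the same windows, was in 59 of the 131 (45%) and in 37.5% of tested genes. These shares are a description, and the higher share was not limited to the cAMP motifs. The 150 genes were also brighter than the rest, at a median percentile of 75.3 among all genes.

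Besides Tubb2b and Dhrs7, 28 genes were called before and after correction at positions where the local deviation was 0.25 or less in size. They were picked after their values were seen. All 30 belong to the 150 genes called before and after correction, 2 fits of the same samples. Of the 150, 48 stayed called under every corrected setting over all genes other than the compared groups alone. With the compared groups alone after correction, 6 of the 150 stayed called. Before correction, 19 did in Cy5 samples alone and 8 by the methods' t-test after adjustment. Of the 30 genes in all, 20 were higher and 10 lower in BYA. All 20 increases lay where the local deviation was positive. The decreases lay where it was negative, except Akap12, Mbd6 and Tubb2b. Pqbp1, a splicing-linked protein whose loss in humans causes intellectual disability, had the smallest p of these increases before correction. It stood at 2.93, 3.09, 2.72 and 2.95 in BYA and at 1.67, 2.15, 1.69 and 1.96 in BYS. All BYA values lay above all BYS values, with a difference of 1.05 ± 0.14 (limma adjusted p = 0.000126), or 0.84 ± 0.09 after correction (limma adjusted p = 5.73e-05).

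Atp23, a mitochondrial protease and assembly factor of the ATP synthase, had the largest increase of the 30. Its levels were 0.09, 0.08, 0.31 and 0.63 in BYA, against -0.84, -1.51, -0.67 and -0.81 in BYS, with no overlap. The difference was 1.24 ± 0.21 before correction (limma adjusted p = 0.000995) and 1.02 ± 0.11 after it (limma adjusted p = 5.51e-05). Slc13a5, the plasma membrane citrate transporter whose loss in humans causes an epilepsy of early infancy, stood at 2.70, 2.71, 2.93 and 2.89 in BYA and at 1.85, 2.47, 1.49 and 2.11 in BYS. Its difference was 0.83 ± 0.21 (limma adjusted p = 0.0185), or 0.64 ± 0.13 after correction (limma adjusted p = 0.0136). Plk2, a kinase induced by neuronal activity, was higher by 0.57 ± 0.17 (limma adjusted p = 0.0442) and by 0.51 ± 0.11 after correction (limma adjusted p = 0.022).

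The other increases among the 30 lay between 0.59 (Rps6, Wdr48) and 1.03 (Adck2) before correction and between 0.42 (Rps6) and 0.80 (Adck2) after it. They included Rps6, a protein of the small ribosomal subunit, and Dnajc24, a co-chaperone (0.61 before and 0.49 after). Commd10, which acts in endosomal sorting, was the 1 increase measured on 10 spots. Commd10 stood at 2.48, 2.60, 2.05 and 2.24 in BYA, against 1.53, 1.82, 1.41 and 1.99 in BYS, again without overlap. Its difference was 0.66 ± 0.17 (limma adjusted p = 0.0223), or 0.50 ± 0.12 after correction (limma adjusted p = 0.0427).

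Syn1, which tethers synaptic vesicles, stood at 0.78, 1.12, 1.29 and 1.58 in BYA and at 1.53, 2.37, 1.44 and 1.97 in BYS. The ranges overlapped, but within each dye the BYA values were the lower ones, and the difference was -0.63 ± 0.19 (limma adjusted p = 0.0415), or -0.52 ± 0.10 after correction (limma adjusted p = 0.0108). Glul, the glutamine synthetase of astrocytes and a target of glucocorticoids, stood at 2.96, 3.27, 3.21 and 3.60 in BYA, against 3.71, 4.15, 3.49 and 4.21 in BYS. Its ranges also overlapped, with a difference of -0.63 ± 0.18 (limma adjusted p = 0.0368) and -0.42 ± 0.10 after correction (limma adjusted p = 0.0435). Sort1, a sorting receptor for neurotrophin precursors, stood at 0.45, 0.56, 0.39 and 0.43 in BYA and at 0.84, 1.32, 0.97 and 1.20 in BYS, with no overlap and a difference of -0.63 ± 0.16 (limma adjusted p = 0.0224). After correction it was -0.50 ± 0.12 (limma adjusted p = 0.0345).

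Nfat5, the transcription factor of the response to osmotic stress, was the 1 decrease measured on 11 spots. Nfat5 stood at 0.61, 0.49, 0.67 and 0.82 in BYA, against 1.00, 1.37, 1.18 and 1.25 in BYS. No BYA value reached a BYS value, and the difference was -0.55 ± 0.15 (limma adjusted p = 0.0259), or -0.43 ± 0.10 after correction (limma adjusted p = 0.0368). The other decreases were Akap12, an anchor of protein kinase A, Alkbh4, Mbd6 and Plekhm1, between -0.51 (Akap12) and -0.75 (Plekhm1) before correction and between -0.49 (Alkbh4) and -0.77 (Mbd6) after it.

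**Figure D3:**
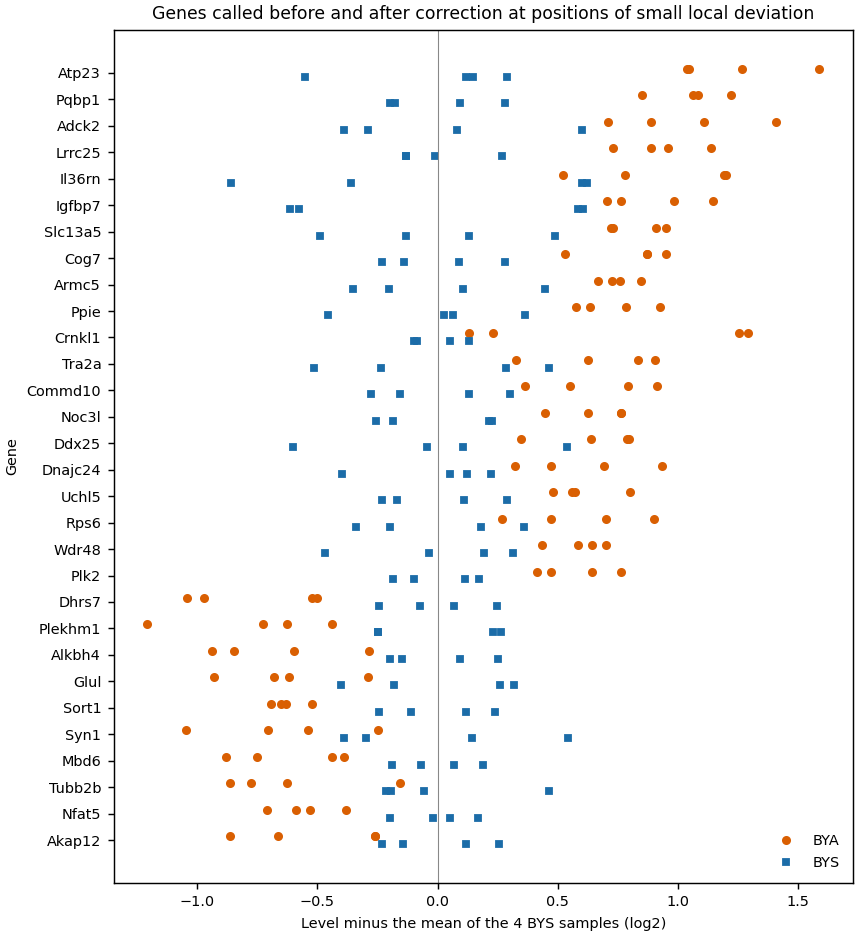
Levels of the 30 genes called before and after correction at positions of small local deviation, as log2 level before correction minus the mean of the 4 BYS samples, in each BYA (circles) and BYS (squares) sample. The 20 increases from Atp23 to Plk2 stand above the 10 decreases, and the groups overlap in 7 genes when both dyes are pooled (Ddx25, Glul, Il36rn, Rps6, Syn1, Tra2a and Tubb2b).

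The 15 largest increases of the comparison were taken from genes without overlap, outside the dimmest 25% of genes. Groups did not overlap in 10.1% of all genes. The 15 increases ran from 1.82 (Srp68) down to 1.51 (Sdhaf2) before correction, and each was measured on 1 spot. After correction these 15 lay between 0.51 and 1.15, and 14 of them were still called, the exception being Lyz2 (0.71 ± 0.26, limma adjusted p = 0.163). None of the 15 lay at a position of small local deviation. Eif1a, a factor that scans messenger RNA for the start codon, was the highest of them after correction. Its levels were 1.40, 1.58, 1.49 and 1.72 in BYA and -0.15, -0.36, 0.03 and -0.05 in BYS. It was higher by 1.68 ± 0.16 (limma adjusted p = 1.24e-05), or by 1.15 ± 0.12 after correction (limma adjusted p = 5.51e-05).

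Upf3a, of the nonsense-mediated decay of messenger RNA, and Srp68, of the particle that brings nascent secreted proteins to the endoplasmic reticulum, followed. Upf3a stood at 3.22, 3.36, 3.4 and 3.44 in BYA, against 1.33, 1.67, 1.54 and 1.83 in BYS. The difference was 1.76 ± 0.13 (limma adjusted p = 6.93e-07) and 0.95 ± 0.09 after correction (limma adjusted p = 5.18e-05). Srp68 stood at 3.43, 3.80, 3.52 and 3.98 in BYA and at 1.87, 2.37, 1.33 and 1.89 in BYS, a difference of 1.82 ± 0.16 (limma adjusted p = 4.19e-06), or 0.92 ± 0.10 after correction (limma adjusted p = 5.92e-05).

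Gabrb1, the beta1 subunit of the GABA-A receptor, stood at 3.33, 3.51, 3.46 and 4.15 in BYA and at 1.87, 2.42, 1.39 and 1.89 in BYS. Its difference of 1.72 ± 0.26 (limma adjusted p = 0.000472) was 0.76 ± 0.18 after correction (limma adjusted p = 0.0321). Slc25a4, the carrier that exchanges ADP and ATP across the inner mitochondrial membrane, stood at 5.73, 5.92, 4.85 and 5.19 in BYA and at 3.44, 3.73, 3.61 and 4.25 in BYS. Its difference was 1.67 ± 0.21 (limma adjusted p = 9.83e-05), or 0.82 ± 0.16 after correction (limma adjusted p = 0.0108). The remaining increases of the 15 that kept their call were Creg1, Cyb561d2, Echdc1, Ap3d1, Golph3, Spire1, Rbks, Trap1 and Sdhaf2. In all 15 genes every BYA value lay above every BYS value, as the choice of these genes required.

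Of the 15 largest decreases, between -1.34 (Fam193a) and -0.94 (Zfp574) before correction, 4 were still called after it. Abcc9, a subunit of potassium channels of pericytes and smooth muscle, was measured on 3 spots and stood at -0.41, -0.54, -1.06 and -0.94 in BYA, against 0.32, 0.61, 0.23 and 0.73 in BYS. Its difference was -1.21 ± 0.21 (limma adjusted p = 0.00121), or -0.68 ± 0.16 after correction (limma adjusted p = 0.0326). Prpf8, the core protein of the spliceosome, had -1.03 ± 0.21 (limma adjusted p = 0.00581) and, after correction, -0.69 ± 0.16 (limma adjusted p = 0.0351). Ccny gave -1.03 ± 0.22 and -0.46 ± 0.11 after correction, and Rnf150 gave -0.95 ± 0.26 and -0.70 ± 0.17. The other 11 (Fam193a, Tifab, Arid1a, Tubgcp5, Trip11, Lmntd1, Rmdn1, Celf2, Lypla1, Zfp958 and Zfp574) had corrected differences between -0.89 and -0.26 that did not pass.

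**Figure D4:**
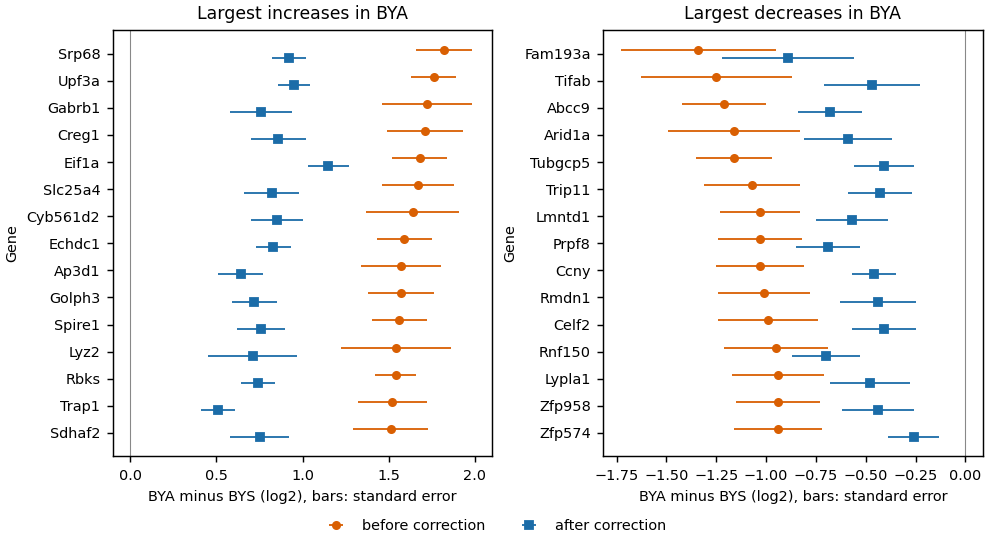
Differences BYA minus BYS (log2, with standard error from the fit) of the 15 largest increases and 15 largest decreases, before (circles) and after (squares) position correction. Corrected increases lay between 0.51 and 1.15, and corrected decreases between -0.89 and -0.26.

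Gene lists were then read for the pathways that the treatment or the model could touch, against the 8.67% called over all genes before correction and 2.14% after it. The median difference over all genes was -0.11 before and -0.01 after. Of 33 measured genes chosen by name for this tissue and treatment, 1 was called before correction and 0 after. The exception was Per1, a clock gene that glucocorticoids induce, at -1.12 ± 0.31 (limma adjusted p = 0.0316) and -0.55 ± 0.18 after correction (limma adjusted p = 0.129). Pomc had a difference of 0.43 ± 0.24, Agrp of 0.62 ± 0.28, Npy of 0.02 ± 0.21, Mc3r of 0.72 ± 0.39 and Mc4r of -0.27 ± 0.24, none of which passed. For Agrp the local deviation was 0.88, and the corrected difference was -0.26 ± 0.26.

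Among 30 glucocorticoid responsive genes, 2 were lower (Per1 and Glul) and 0 higher before correction, and Glul alone was called after it. Fkbp5, a cochaperone that curbs the glucocorticoid receptor and is a sensitive readout of it, had -0.09 ± 0.26 (limma adjusted p = 0.862). Its levels were 1.72, 2.45, 2.85 and 2.98 in BYA and 2.53, 2.83, 2.43 and 2.57 in BYS, which overlap. Tsc22d3, the leucine zipper induced by glucocorticoids, had 0.83 ± 0.31 (limma adjusted p = 0.0972) and 0.43 ± 0.22 after correction (limma adjusted p = 0.307). Sgk1, a kinase induced by the same hormones, had 0.69 ± 0.28 and 0.36 ± 0.15, and Nr3c1, the receptor itself, 0.47 ± 0.20 and 0.01 ± 0.25. Of 23 stress axis and melanocortin genes the 1 called was Cpe, a carboxypeptidase that trims peptide hormones, at 1.39 ± 0.24 and 0.63 ± 0.16 after correction (limma adjusted p = 0.0461).

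Transmitter genes were read as 5 lists, of which GABA, glutamate and acetylcholine held calls before correction. Of 29 GABA genes 3 were higher (Gabrb1, Gabarapl1, Gad2). After correction Gabrb1 was higher and Trak2, which links mitochondria to kinesin, was lower (-0.34). Trak2 turned its sign with the correction. Gad2, which makes GABA at nerve endings, had 0.99 ± 0.30 before correction and 0.28 after it (limma adjusted p = 0.575). Of 38 glutamate genes 2 were lower (Glul and Grm7), and Glul alone after correction. Of 19 acetylcholine genes Chrna1 was higher and Chrnb2 and Chrna9 were lower, and 0 were called after correction. Chrnb2, the common beta subunit of nicotinic receptors in brain, had -0.94 ± 0.16 and -0.12 after correction (limma adjusted p = 0.62). None of 16 dopamine and 14 serotonin genes was called in either table.

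Among 32 synaptic vesicle and release genes, 2 were higher and 2 lower before correction. After it 0 were higher and 3 were lower, Syn1, Rab3a, the small GTPase of vesicles (-0.72 ± 0.19 and -0.40 ± 0.09), and Vamp2, the vesicle SNARE, whose uncorrected difference was -0.06. Neuron markers numbered 20, of which Tubb2b was lower before correction, and Tubb2b and Eno2 after it. The sign of Eno2 turned with the correction. Immediate early genes, which mark recent neuronal activity, numbered 24, with 0 called before correction and 1, Jund, lower after it. Fos stood at 0.10, 1.63, 1.00 and 2.13 in BYA and at 1.23, 1.17, 1.90 and -0.44 in BYS, and Arc, on 10 spots, at 0.87, 1.29, 0.92 and 1.14 against 1.20, 1.27, 1.04 and 0.57. Both groups overlapped widely in these genes, with differences of 0.25 ± 0.62 for Fos and 0.04 ± 0.27 for Arc.

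Lists of protein synthesis and energy metabolism held fewer called genes after correction, as did the whole table. Ribosomal proteins and respiratory chain genes were among the brightest, at median level percentiles of 98.9 and 96.6. Of 78 ribosomal proteins 12 were higher and 0 lower, with a median of 0.18, and after correction 3 (Rpl18, Rps6 and Rps7) were higher with a median of 0.06. Of 80 respiratory chain and ATP synthase genes 11 were higher, and after correction 2 (Ndufa13 and Ndufv1). Ndufv1, of complex I, had 1.45 ± 0.17 before correction and 0.39 ± 0.09 after it (limma adjusted p = 0.0386). Of 70 mitochondrial ribosomal proteins 6 were higher and 1 lower, against 2 and 0 after correction, and of 51 translation initiation factors 6 were higher, against 1 (Eif1a). After correction the medians of these 4 lists lay between 0.01 and 0.08.

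Of 47 proteasome subunits 7 were higher and 2 lower, and after correction 2 and 1. Psmc1, an ATPase of the regulatory particle, had 1.19 ± 0.14 before correction and 0.51 ± 0.11 after it (limma adjusted p = 0.0217). Of 76 heat shock and unfolded protein response genes 10 were higher and 3 lower, against 1 (Dnajc24) and 1 (Dnajb1) after correction. Dnajb1 turned its sign with the correction. Of 22 cholesterol synthesis genes 3 were higher, and Srebf2, the transcription factor that controls this pathway, stayed called. Srebf2 stood at 3.37, 3.80, 3.69 and 3.95 in BYA and at 2.43, 2.85, 2.64 and 2.82 in BYS without overlap, a difference of 1.02 ± 0.12 (limma adjusted p = 7.01e-05), or 0.70 ± 0.10 after correction (limma adjusted p = 0.000852). Of 39 N-glycosylation genes 5 were higher before correction and 0 after it.

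The list of 26 chemokines, cytokines and inflammation genes had the highest median of all lists, 0.27 before correction and 0.34 after it. Cx3cl1, Nfkb1 and Irf7 were called higher before correction and 0 genes after. Its inducible chemokines varied widely between the rats of a group. Ccl2, a chemokine that draws monocytes, was measured on 10 spots at 1.27, 2.11, 0.47 and 0.12 in BYA and at 0.48, -0.40, 1.84 and -3.46 in BYS, a difference of 1.38 ± 1.24 (limma adjusted p = 0.5). Ccl3, of activated microglia, stood at 2.61, 3.38, 2.12 and 1.24 in BYA and at 2.05, 1.70, 1.91 and -0.14 in BYS (0.96 ± 0.84), and Icam1 had 0.96 ± 0.54. C5ar1, the receptor that PMX53 blocks, had 0.06 ± 0.32. Of 29 complement genes 2 were higher before correction and 0 after.

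In tissue pieces, fewer cells of a type and less RNA per cell cannot be told apart, and markers of other cells are given as counts. Endothelial and pericyte markers numbered 22, with a median of -0.35 before correction and -0.25 after it. Before correction 3 were lower (Abcc9, Nos3 and Esam), and after it 3 were lower (Abcc9, Vwf and Cldn5) and 0 higher. Cldn5, the tight junction protein of brain endothelium, had -0.35 before correction and -0.43 ± 0.10 after it (limma adjusted p = 0.0321), and Vwf, stored by endothelium for clotting, -0.42 and -0.62 ± 0.14 (limma adjusted p = 0.0228). The corrected mean level of the list was -0.12, -0.09, -0.05 and -0.05 in BYA and 0.01, 0.18, 0.07 and 0.34 in BYS, which did not overlap. This was not particular to these markers. Corrected means of neuron markers, glutamate receptors and transporters, and pituitary and pars tuberalis markers were also lower in every BYA sample than in every BYS sample. Those of olfactory and vomeronasal receptors were higher in every BYA sample. Before correction the BYA and BYS means overlapped in each of these other lists. The median difference of neuron markers was 0.03 before correction and -0.09 after it.

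Oligodendrocyte and myelin markers had the lowest median of all lists before correction, -0.51, and -0.25 after it, with 0 of 20 called in either table. Their corrected mean level was 0.50, 0.25, 0.38 and 0.83 in BYA and 0.76, 0.67, 0.33 and 1.26 in BYS, so the groups overlapped. Mobp had -0.69 ± 0.65 and Mog -0.85 ± 0.63, and Mbp 0.66 ± 0.34. Of 22 microglia and macrophage markers 1 was higher and 2 were lower before correction and 0 were called after it, and of 17 astrocyte markers 1 was higher and 1 lower, with Glul alone after correction. None of 14 blood cell, 20 choroid plexus and meninges, 10 pituitary and pars tuberalis and 15 thalamus, cortex and hippocampus markers was called in either table. Their part in the differences of other genes was not tested.

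**Figure D5:**
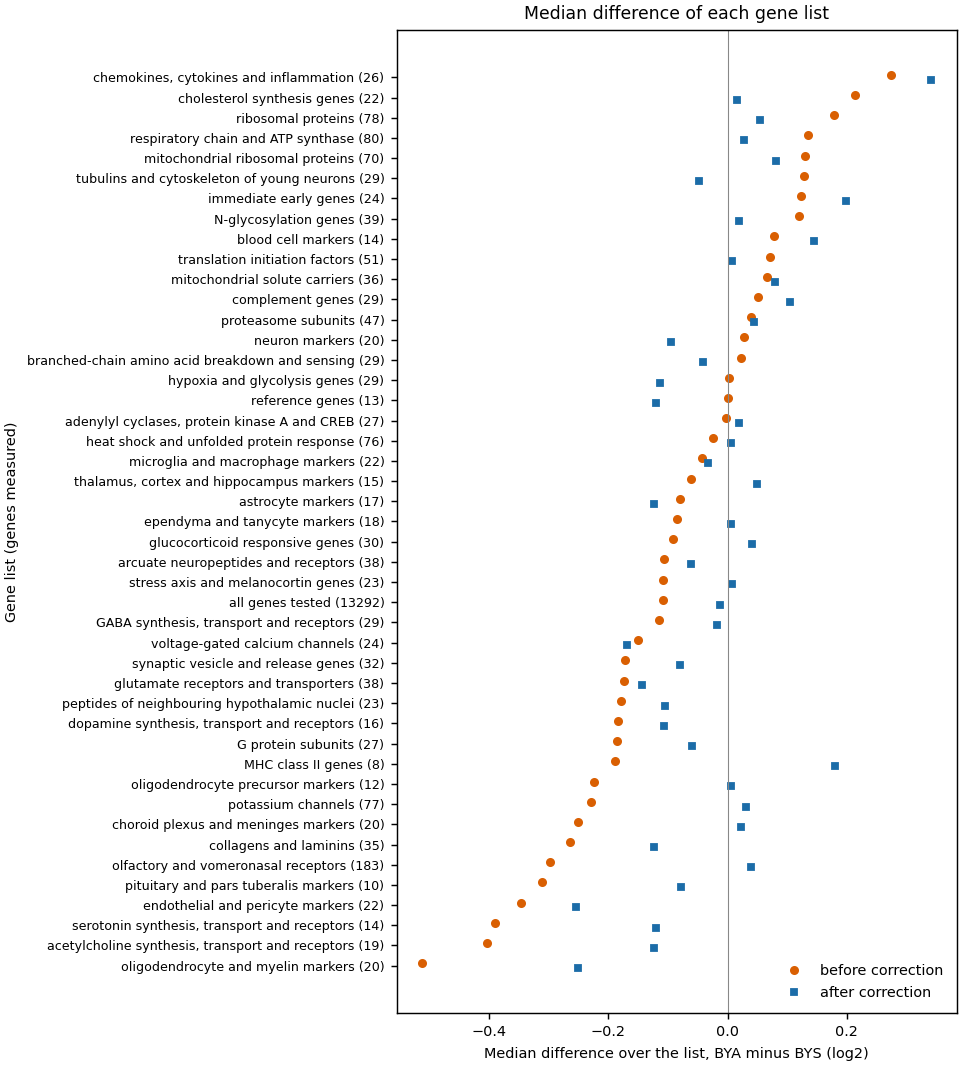
Median difference BYA minus BYS (log2) of each gene list, with the number of genes measured in brackets, before (circles) and after (squares) position correction. Medians ran between -0.51 (oligodendrocyte and myelin markers) and 0.27 (chemokines, cytokines and inflammation) before correction, and between -0.25 and 0.34 after it, with all genes at -0.11 and -0.01.

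Among the 1189 genes measured on 10 or more spots, 21 were higher and 8 lower before correction, and 1 was higher and 7 were lower after it. Beside Commd10 and Nfat5, which were called in both tables, the corrected calls were Dbn1, Sorl1, Ttc7b, Aplp2, Rab5b and Txn1, all lower and none called before correction. Dbn1, which binds actin in dendritic spines, had -0.53 ± 0.13 after correction (limma adjusted p = 0.0382), and Sorl1, a sorting receptor of the amyloid precursor, -0.50 ± 0.11 (limma adjusted p = 0.0311). Their uncorrected differences were -0.09 and -0.14. The largest uncorrected increase on 10 spots was that of Rab18, a small GTPase of lipid droplets and the endoplasmic reticulum, at 0.73 ± 0.18 (limma adjusted p = 0.0168), and its corrected value was 0.39 ± 0.11 (limma adjusted p = 0.0737).

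The levels of the leading genes in the other groups were set beside those of BYA and BYS, with the caution that BYA minus BYS, BYP minus BYS and BYS minus BNS share the BYS samples. Against BYS, 1287 genes (9.68%) were called in BYP before correction and 374 (2.81%) after it, and BYS itself differed from BNS in 2059 (15.5%) and 737 genes (5.54%). For Pqbp1 BYP minus BYS was 0.97, BYS minus BNS -1.04 and BYA minus BNS 0.01. For Atp23 BYP minus BYS was 0.87, BYS minus BNS -1.06 and BYA minus BNS 0.18. Eif1a, Upf3a and Srp68 had BYP minus BYS of 1.41, 1.5 and 1.49 and BYS minus BNS of -1.16, -1.60 and -1.42. In each of these 5 genes all 4 BYS samples lay below every BYA, BYP and BNS sample. For BYA, the choice of Eif1a, Upf3a and Srp68 required this, and Pqbp1 and Atp23 were picked after their values were seen. Over all 13292 genes tested, 784 had every BYA value above every BYS value. The share of genes with BYS below all of these groups was not counted. These levels and differences are those before correction, and BYA minus BYS was smaller after it in all 5. Pqbp1 and Atp23 lay where the local deviation was 0.22, whereas Eif1a, Upf3a and Srp68 were not at positions of small local deviation. Whether the array pattern of the BYS samples gave these low levels was not tested.

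Lrrc25, expressed by myeloid cells, had another order. It stood at 0.89, 1.07, 0.66 and 0.82 in BYA and at -0.08, 0.20, -0.20 and -0.20 in BYS, at 0.34, 0.68, 0.34 and 0.60 in BYP and at -0.44, -0.45, -0.58 and -0.59 in BNS. By mean the order was BYA, BYP, BYS and BNS. BYA and BYP overlapped, and the other neighbours did not. BYA minus BYS was 0.93 ± 0.14 (limma adjusted p = 0.000589; after correction 0.74, limma adjusted p = 0.00197) and BYA minus BNS 1.38 (limma adjusted p = 0.000226), whereas BYA minus BYP was 0.37 (limma adjusted p = 0.934).

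The direct comparison of BYA with BYP called 4 genes (0.0301%), all lower in BYA: Tubb2b, Dhrs7, Vps4b and Slc35a4, with 613 genes at an unadjusted p below 0.05. After correction 3 genes (0.0226%) were called, Tubb2b, Dhrs7 and Klhl35, the last higher in BYA (0.52, limma adjusted p = 0.0425). Vps4b, of the membrane scission machinery, had -1.03 and, after correction, -0.67 (limma adjusted p = 0.145). Slc35a4 had -0.88 and -0.42 (limma adjusted p = 0.22). Without the array of BYA replicates 1 and 2 the comparison called 252 genes before correction and 427 after it.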

How the data were processed

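The deposited table held relative linear intensity per spot and sample, which the authors obtained with Agilent Feature Extraction 10.7.3.1. How background was corrected and values normalized is not given in the sources used here. Spots were named through RefSeq accessions and symbols and averaged per gene (13292 genes, of which 799 came from their most complete spot). Log2 values minus the sample median were fitted with limma 3.58.1 in R 4.3.3 by group and dye over all 20 samples, with array as a random block, and p-values were adjusted by Benjamini-Hochberg over all genes. The position correction used 60 neighbours, with positions inferred from feature numbers over 85 columns and 532 rows. It was also run on simulated data with an even, rectangular low patch on the BYS samples alone, unlike the diagonal band seen here. Most calls made by that patch were removed, but not all. That run does not show how many of the corrected calls in the real data came from the array pattern. Named genes were the 15 largest called changes in each direction among genes without overlap outside the dimmest 25%, and a list of genes chosen by name. Genes picked out for small local deviation, for 10 or more spots or from the other comparisons were chosen after their values were seen. Members and lists were chosen with earlier results of these data known. The number of arrays limits the precision, and p-values measure the spread between these samples.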

Additional observations from a re-analysis of the deposited data

Results flagged for a closer look

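In 6 cases 1 of the 4 samples of a group lay far from the other 3 in a gene named above, a gap that chance gives in about 1 in 20 groups. BYA and BYS were both checked in every named gene, among them 74 called genes, so chance alone gives several such gaps. Agrp was at 5.16 in BYA replicate 1, below the other BYA samples. Mbp was at 2.58 in BYA replicate 3, Trak2 at 4.41 in BYA replicate 4 and Zfp958 at -2.28 in BYA replicate 2. Celf2 was at 0.90 in BYS replicate 2, and Ccl3 at -0.14 in BYS replicate 4, below the other BYS samples.

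Both drug treatments had spasm rats given saline as their control, and 4 genes differed between BYA and BYP in limma's fit: Tubb2b by -1.02, Dhrs7 by -0.99, Slc35a4 by -0.88 and Vps4b by -1.03. In Slc35a4 and Vps4b, BYA minus BYS was -0.04 and -0.05 and BYP minus BYS was 0.84 and 0.98.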

How the results depend on the processing

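Against 1152 genes called between BYA and BYS by limma, the count was 213 with slide as a random block, 3084 with no array block, 577 with the compared groups alone, 702 with the local trend removed, 2575 with SNS replicate 2 taken as Cy3, 22 in Cy5 samples alone, 583 with Cy3 background matched, and 11 by the methods' t-test after adjustment. Without the array of BYS replicates 1 and 2 it was 660. Leaving out each replicate gave 809 to 1191. Position correction, chosen after seeing the data, gave 284, and with it 389 with slide as a random block, 561 with no array block, 8 with the compared groups alone and 337 with sample weights. Corrected counts were 339, 319, 268 and 1020 without the arrays of BYA replicates 1 and 2, BYA 3 and 4, BYS 1 and 2, and BYS 3 and 4, and, leaving out replicates 1 to 4 in turn, 206, 152, 174 and 235 for BYA and 207, 175, 332 and 338 for BYS. Adjusted over genes on 10 or more spots alone, 78 were called, and 25 after correction. The cause of these shifts was not tested.

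Against 4 genes called between BYA and BYP, the count was 0 with slide as a random block, with the compared groups alone, with 1 dye alone, with Cy3 background matched, over genes on 10 or more spots, and by the adjusted t-test (550 at unadjusted p below 0.05). It was 11 with no array block, 2 with quantile normalization, and 1 with no centring or with the local trend removed. Leaving out each replicate gave 1 to 4. Without the arrays of BYA replicates 1 and 2, BYA 3 and 4, BYP 1 and 2, and BYP 3 and 4 it was 252, 19, 1 and 5, and after correction 427, 46, 5 and 16. Corrected counts were 3 with all samples, 11 with no array block, 0 with the compared groups alone and 0 to 13 without each replicate.

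Equal replicate numbers share a dye, and the labels do not tie them otherwise. With the replicate block 1094 genes were called in BYA minus BYS and 4 in BYA minus BYP, and after correction 198 and 1. Deviations of equal numbers correlated at 0.7, 0.61, 0.69 and 0.66 between BYA and BYS, each sample best with its own number, but within a dye at 0.09 (Cy3) and 0.18 (Cy5).

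Signs turned after correction in Dnajb1 (-0.47, or -0.46, -0.53, -0.55 and -0.71 under other corrected settings), Eno2 (-0.39, -0.43, -0.44) and Trak2 (-0.34, -0.36, -0.39, -0.40). With the correction, Nr3c1 was -0.61 without the array of BYS replicates 1 and 2, Cx3cl1 -0.09 without that of BYA 3 and 4, and Gabarapl1 lay near zero (-0.00, -0.01, -0.02, -0.06).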
